A study of Mus musculus with 6 samples.

Results

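The genes described here encode the subunits of voltage-gated sodium and calcium channels, the HCN pacemaker channels and the TRP (transient receptor potential) channels of the A, C, M and V groups. They were chosen by symbol alone, as every row of the expression table whose name begins with Scn, Cacna, Cacnb, Cacng, Hcn, Trpa, Trpc, Trpm or Trpv in the numbered form, with Trpm5 left aside as a comparison. This gave 66 of 23361 genes. One of the 66, Trpc4ap, is named for a protein that binds a TRP channel and is not itself a channel. The RNA came from isolated CV/Fol taste cells, that is, cells of the taste buds in the circumvallate papilla at the rear of the tongue and in the foliate papillae along its edges, of C57BL/6 mice with no transgene or treatment named. The groups were 3 libraries from mice aged 2 months and 3 libraries from mice aged 6 months, each made from pooled animals, 4 mice per pool at 2 months and 3 mice per pool at 6 months. The cells were freed with enzymes and picked by suction, without sorting, so other cells of the tongue could enter a pool.

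Taste cells convert chemical signals into electrical and calcium signals. Voltage-gated sodium channels carry the action potentials of the type II and type III cells of the bud, voltage-gated calcium channels supply the calcium for vesicle release at the synapses of type III cells, and HCN channels carry an inward current that opens on hyperpolarization. In type II cells, which detect sweet, bitter and umami compounds, calcium released from stores opens the cation channels TRPM5 and TRPM4. Other TRP channels respond to temperature, osmotic strength or irritants, or take up calcium and magnesium in epithelia.

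The authors deposited 1 FPKM value for each gene at each age (fragments mapped to the gene, scaled by transcript length and by library size), which combines the 3 libraries of that age. Because FPKM is scaled by length, levels can be set side by side between genes. There is no value per library here, so no SD is given, no test was possible, and a difference between ages cannot be judged against the spread between pools. The depth of the libraries is unknown. The change between ages is the difference in log2(FPKM + 1), with a positive sign for genes higher at 6 months, a scale on which the changes of weak genes come out too small. Genes that averaged 1 FPKM or more over both ages were called expressed, and a change was called large at 1.5-fold or more on that scale.

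Markers of the 3 taste cell types were present at both ages. Type II markers included Gnat3, the taste G protein, at 84.7 and 79.9 FPKM (at 2 and 6 months, the order used throughout), and type III markers included Pkd2l1, a channel gene that marks sour cells, at 12.4 and 14.0 FPKM. All 7 type III markers and all 6 type II markers were expressed. Higher at 6 months were 6 of the 7 type III markers, with a median change of 0.17. The same held for 4 of the 6 type II markers, with a median change of 0.10, and for 46.3% of all expressed genes. Krt5 and Krt14, keratin genes of the basal cells of stratified epithelium, stood at 2180 and 1287 FPKM at 2 months, and Krt13 was listed at 0 at both ages. A value of 0 in this table can be a failed estimate, since the keratin gene Krt4 is at 7334 FPKM at 2 months and listed at 0 at 6 months, and 61 genes are at 0 in one age and at 10 FPKM or more in the other. A lower level in such bulk RNA can mean fewer cells of a type or less RNA per cell, which cannot be told apart.

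Most channel genes were weakly represented, and a few dominated. Of the 66 genes, 15 (22.7%) were expressed, against 54.2% of all genes in the table. Only 4 of the 66 stood at 10 FPKM or more, namely Trpc4ap, Trpm4, Cacnb3 and Trpm7. A further 11 stood between 1 and 10 FPKM, 26 between 0.1 and 1 FPKM, and 21 above 0 but under 0.1 FPKM. The remaining 4, Cacng3, Cacng6, Scn10a and Trpc7, were listed at 0 at both ages, as were 19.2% of all genes. Another 7 were listed at 0 at one age only, and the highest value any of these had at the other age was 0.0111 FPKM. The expressed gene nearest to the limit was Hcn4, with 1.12 FPKM on average, and the nearest below it were Trpv2 with 0.822 and Cacna2d3 with 0.749 FPKM.

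**Figure D1:**
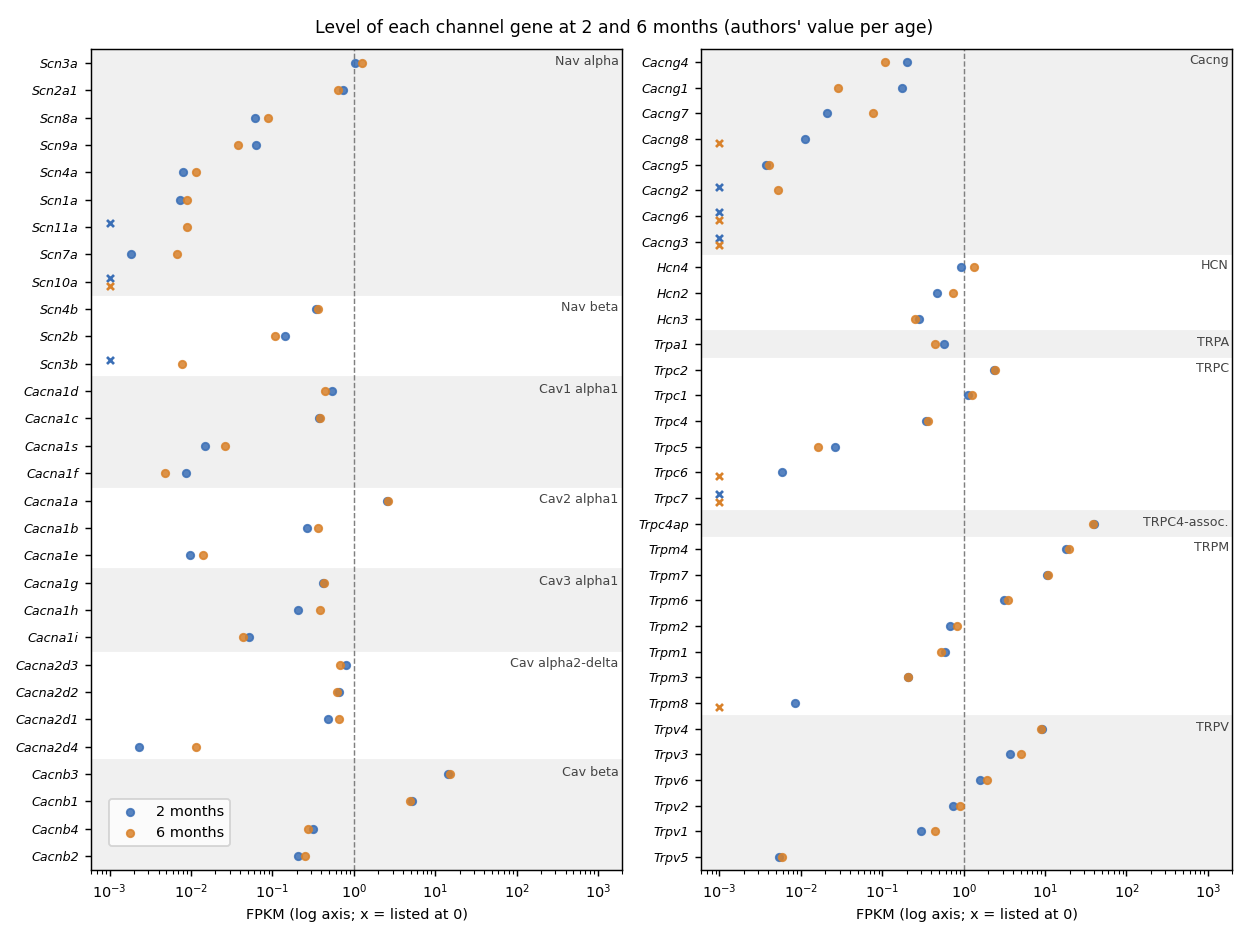
FPKM of 62 of the 66 genes on a log axis, grouped by family, with blue points for 2 months and orange points for 6 months, each the authors' value over 3 pooled libraries, and crosses for genes listed at 0. The dashed line marks 1 FPKM, which 14 of the genes drawn reach on average, and the points of both ages nearly coincide for the abundant genes.

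Wide contrasts in level were seen between paralogs that lie next to each other. Trpv1, the capsaicin and heat receptor of sensory neurons, and Trpv3, a warmth-activated channel of keratinocytes, lie head to tail on chromosome 11 of GRCm38 within a span from 73234292 to 73300363, with no other protein-coding gene between their ends. Trpv3 was at 3.68 and 5.01 FPKM, while Trpv1 was at 0.300 and 0.446 FPKM, so that Trpv3 was 12.3 and 11.2 times as high. Trpv6 and Trpv5, the calcium-selective channels of absorbing epithelia, lie on chromosome 6 within a span from 41620624 to 41680769. Trpv6 was at 1.60 and 1.92 FPKM, and Trpv5 at 0.00545 and 0.00592 FPKM. Both values of Trpv5 lie below the 0.0111 FPKM that Cacng8 had at 2 months before it was listed at 0 at 6 months, so no ratio is given.

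The stretches just upstream of these 4 genes are printed because neighbouring copies differed so widely in level, and that of Trpm7, a broadly expressed gene, is printed beside them. Each is the 250 bases before the annotated start in RefSeq (GRCm38.p6), given 5′ to 3′ along the gene's own strand, with CG dinucleotides in capitals. They span chr11:73267270-73267519 and chr11:73233899-73234148 on the plus strand, and chr6:41636406-41636655, chr6:41680724-41680973 and chr2:126876262-126876511 on the minus strand. In GENCODE M21, the source of the gene spans given above, Trpv3 starts at 73267388 and Trpv5 at 41680769. By that annotation, part of the window of Trpv3 and of Trpv5 lies inside the gene and not upstream of it.
Trpv3: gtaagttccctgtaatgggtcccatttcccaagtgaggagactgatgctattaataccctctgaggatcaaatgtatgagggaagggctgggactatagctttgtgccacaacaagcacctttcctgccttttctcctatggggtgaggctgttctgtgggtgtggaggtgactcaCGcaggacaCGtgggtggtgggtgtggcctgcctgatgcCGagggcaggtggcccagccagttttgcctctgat
Trpv1: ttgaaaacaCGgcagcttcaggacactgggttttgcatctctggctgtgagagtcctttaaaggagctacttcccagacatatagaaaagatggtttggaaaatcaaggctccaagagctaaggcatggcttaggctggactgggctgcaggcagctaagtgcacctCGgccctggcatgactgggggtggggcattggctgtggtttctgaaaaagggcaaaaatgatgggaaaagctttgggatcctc
Trpv6: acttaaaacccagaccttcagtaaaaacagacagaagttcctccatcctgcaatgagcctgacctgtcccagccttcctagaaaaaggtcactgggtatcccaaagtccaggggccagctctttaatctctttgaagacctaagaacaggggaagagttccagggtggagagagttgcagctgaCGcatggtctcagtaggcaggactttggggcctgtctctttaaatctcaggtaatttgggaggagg
Trpv5: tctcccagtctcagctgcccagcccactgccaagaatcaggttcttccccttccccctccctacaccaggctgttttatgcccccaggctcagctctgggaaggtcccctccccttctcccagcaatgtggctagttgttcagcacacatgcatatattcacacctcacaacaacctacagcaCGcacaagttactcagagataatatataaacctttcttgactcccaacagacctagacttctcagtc
Trpm7: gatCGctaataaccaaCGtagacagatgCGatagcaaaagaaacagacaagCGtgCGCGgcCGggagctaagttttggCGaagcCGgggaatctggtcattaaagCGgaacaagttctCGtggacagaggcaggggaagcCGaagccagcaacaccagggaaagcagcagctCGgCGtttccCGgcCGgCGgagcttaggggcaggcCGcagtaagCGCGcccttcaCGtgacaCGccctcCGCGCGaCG

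The stretch printed for Trpv3 held 3 CG dinucleotides and that of Trpv1 held 2, and Trpv6 and Trpv5 each held 1. The members of a pair were thus alike in this measure although their levels were not. By the GENCODE M21 start, all 3 CG of the Trpv3 window lie inside the gene and not upstream of it. Of all 27025 genes with such a sequence, 70.4% had at least 3 CG in this window. Trpm7 held 26, a number reached by 9.25% of all genes. The letters TATAAA, searched on both strands, occurred in the stretch of Trpv5 and in none of the other 4 printed, and in 13.0% of all such stretches. In Trpv5 they too lie inside the gene by the GENCODE M21 start. Sequences were matched for 51 of the 66 genes, and the median number of CG was 11 over the 11 matched genes that were expressed, 7.5 over the 40 matched genes that were not and 6 over all genes. The letters are a description of these windows and say nothing of which factors bind there.

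**Figure D2:**
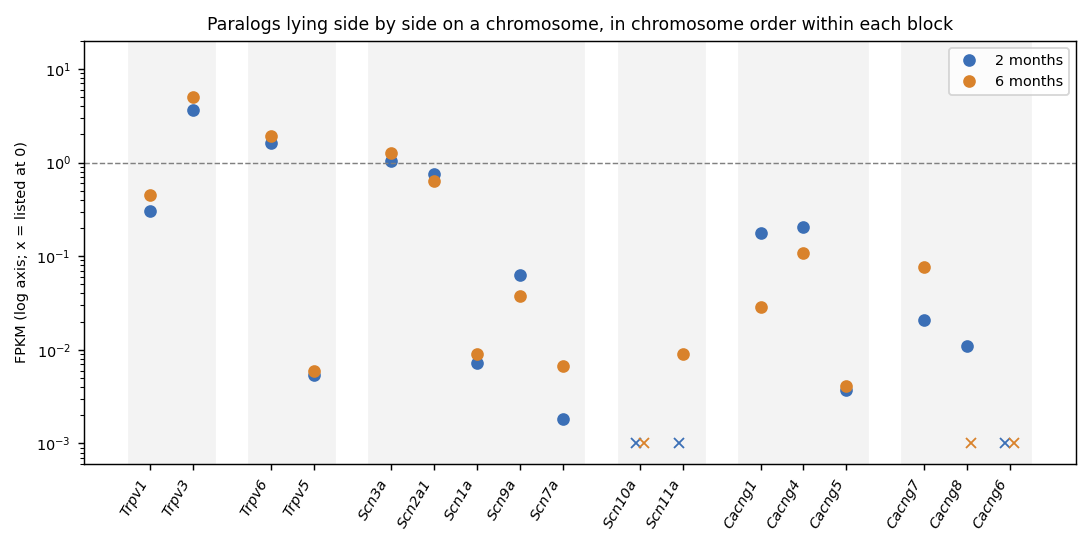
FPKM on a log axis of channel genes that lie in chromosomal groups, in chromosome order within each shaded block, with blue points for 2 months, orange points for 6 months and crosses for genes listed at 0. Trpv3 lies above Trpv1 and Trpv6 above Trpv5 at both ages, and Scn3a and Scn2a1 lie above Scn1a, Scn9a and Scn7a.

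Among the 10 sodium channel alpha subunits, which form the pore, Scn3a led at both ages. Scn3a was at 1.05 and 1.25 FPKM, which made it the only expressed alpha subunit gene. Scn2a1, the table's older name for Scn2a, was at 0.747 and 0.635 FPKM. Scn3a held 42.2% of the summed FPKM of the alpha subunits at 2 months and 46.5% at 6 months. Scn9a, a sodium channel of sensory neurons that is also known from taste cells, was at 0.0627 and 0.0375 FPKM.

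Several of these genes sit in chromosomal groups. On chromosome 2, Scn3a and Scn2a1 lie beside each other and are followed by Scn1a, Scn9a and Scn7a, all of which were under 0.1 FPKM, with 3 other protein-coding genes in the span. On chromosome 9 lie Scn10a and Scn11a, both sodium channels of pain-sensing neurons. Scn10a was listed at 0 at both ages, and Scn11a was listed at 0 at 2 months and at 0.00895 FPKM at 6 months. Of the beta subunits, which adjust gating and bind neighbouring cells, Scn4b was at 0.344 and 0.365 FPKM.

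Of the 10 calcium channel alpha1 subunit genes, which encode the pore, Cacna1a led at both ages. Cacna1a, the pore of the P/Q-type channel of synapses, was at 2.58 and 2.63 FPKM, or 57.6% and 55.7% of the summed FPKM of the alpha1 genes. The ages differed by 0.02 on the log2(FPKM + 1) scale. Of its close relatives, the N-type gene Cacna1b was at 0.268 and 0.367 FPKM, and the R-type gene Cacna1e was at 0.00968 and 0.0140 FPKM. The L-type genes Cacna1d, at 0.541 and 0.444 FPKM, and Cacna1c, at 0.373 and 0.380 FPKM, stood close to each other. Among the T-type genes, which open at low voltage, Cacna1g was at 0.422 and 0.428 FPKM. Cacna1h went from 0.209 to 0.383 FPKM, a ratio of 1.83 at a level where the log2(FPKM + 1) scale gives 0.19.

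The leading beta subunits of calcium channels stood above the pores. Cacnb3, a cytoplasmic beta subunit that brings the pore to the membrane, was the highest subunit gene of any voltage-gated channel here, at 14.5 and 15.2 FPKM. It was 5.62 and 5.77 times as high as Cacna1a, and higher than 76.7% of all genes in the table. Cacnb1, the beta subunit best known from skeletal muscle, was at 5.22 and 4.98 FPKM, while Cacnb4 and Cacnb2 stayed under 0.4 FPKM. Cacnb3 therefore held 71.6% and 73.4% of the beta subunit signal.

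The alpha2-delta subunits are extracellular partners that raise channel number at the membrane, and 3 of the 4 shared that family's signal rather evenly. Cacna2d3 held 41.4% of its summed FPKM at 2 months and 34.8% at 6 months, Cacna2d2 34.0% and 31.2%, and Cacna2d1 24.4% and 33.4%. Cacna2d1 went from 0.478 to 0.662 FPKM, a ratio of 1.38, and Cacna2d3 from 0.811 to 0.688 FPKM. The 8 Cacng genes, of which several encode partners of glutamate receptors in neurons, were the weakest family, with a summed level of 0.415 and 0.223 FPKM. Cacng1, the gamma subunit of the skeletal muscle channel, went from 0.177 to 0.0284 FPKM, and Cacng4 from 0.203 to 0.108 FPKM, while Cacng7 went the other way, from 0.0209 to 0.0772 FPKM. Of the 8 genes, 3 were higher and 3 lower at 6 months.

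All 4 HCN genes had values above 0 at both ages, and Hcn4 led. Hcn4, which underlies the cardiac pacemaker current and is also known from sour taste cells, was at 0.916 and 1.33 FPKM, a ratio of 1.45 and a change of 0.28. Hcn2 was at 0.464 and 0.748 FPKM, a ratio of 1.61. Hcn3 was at 0.279 and 0.252 FPKM. The summed level of the 4 genes was 2.33 and 3.06 FPKM. The 7 sour cell markers, of which 6 were also higher, had a summed level of 58.7 and 70.8 FPKM. The 6 type II markers, of which 4 were higher, had a summed level of 215 and 222 FPKM. The part of the sour cells in the HCN values was not tested.

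The TRPM group held Trpm4, which had the highest level of the 66 genes after Trpc4ap. Trpm4, a monovalent cation channel opened by intracellular calcium, was at 18.0 and 19.5 FPKM and lies on chromosome 7 from 45302632 to 45333780. Trpm5, its close relative and the comparison gene, was at 29.1 and 27.7 FPKM, so that Trpm4 was 0.621 and 0.705 times as high as Trpm5. Trpm7, a magnesium and calcium channel fused to a kinase and needed by most cells, was at 10.6 and 10.9 FPKM. Its epithelial relative Trpm6 was at 3.14 and 3.48 FPKM, and the ratio of Trpm7 to Trpm6 was 3.37 at 2 months and 3.15 at 6 months. Trpm2, a channel opened by oxidative stress, was at 0.678 and 0.818 FPKM. The cold receptor gene Trpm8 was at 0.00855 FPKM at 2 months and listed at 0 at 6 months.

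In the TRPV group, Trpv4 led the order. Trpv4, a channel opened by swelling and warmth, was at 9.04 and 8.94 FPKM, or 58.8% and 51.9% of the family's summed FPKM. Trpv3 followed with 24.0% and 29.1%, and its change of 0.36 on the log2(FPKM + 1) scale was the largest among the 15 expressed genes. The keratinocyte genes beside it went in either direction, with Krt5 at 2180 and 1962 FPKM and Krt14 at 1287 and 1533 FPKM. Trpv2 was at 0.746 and 0.897 FPKM, and Trpa1, the receptor for pungent irritants, at 0.579 and 0.448 FPKM.

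Among the TRPC genes, which work in calcium entry after phospholipase C is activated, Trpc2 was at 2.37 and 2.40 FPKM. Trpc2 is best known from the vomeronasal organ. Its value is uncertain, because 97.5% of its exonic bases in GENCODE M21 are shared with the read-through gene Xntrpc on the same strand. The FPKM values were made with RefSeq genes and hold none for Xntrpc, so reads of these genes cannot be told apart. Cacna1a and Cacnb1 share 3.81% and 1.77% of their exonic bases with genes on the opposite strand, and no source used here says that reads were counted by strand. Trpc1 was at 1.12 and 1.26 FPKM, and Trpc4 at 0.346 and 0.368 FPKM. Trpc5 and Trpc6 were under 0.1 FPKM at both ages. Trpc4ap, the associated protein, was at 40.0 and 38.6 FPKM and was higher than 90.1% of all genes.

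**Figure D3:**
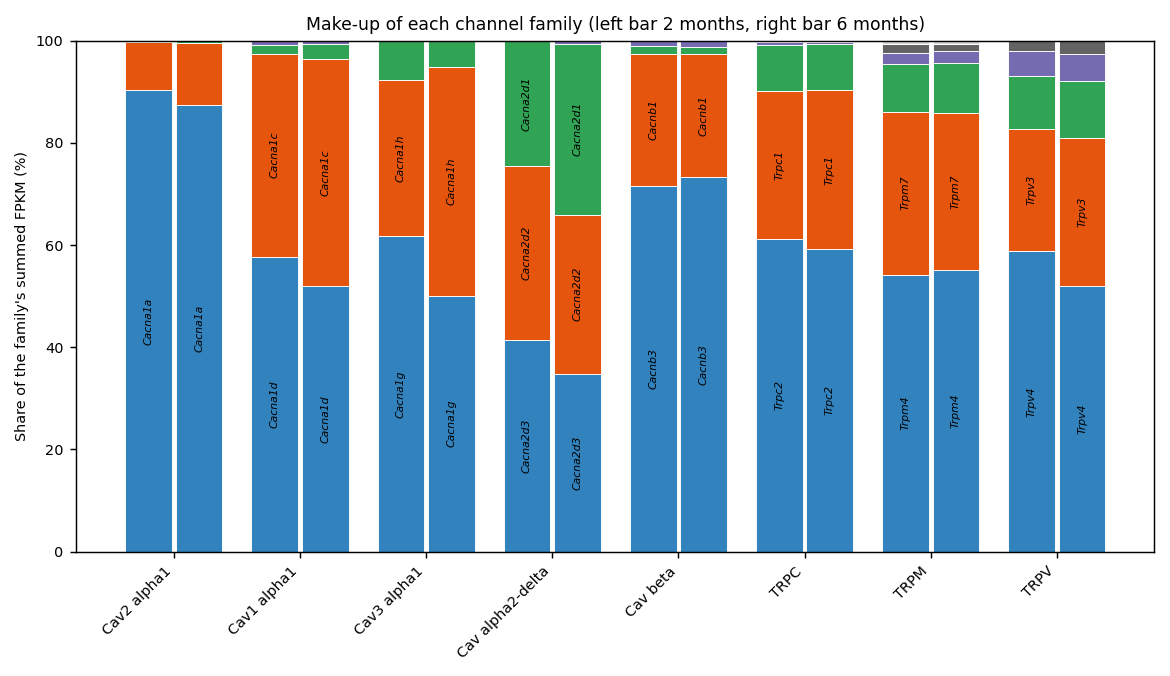
Share in percent of each family's summed FPKM held by its members, stacked, with the left bar of each pair for 2 months and the right bar for 6 months. Genes with a share of at least 15% are named, and the lowest segment, the leading gene, is the same at both ages in all 8 families drawn.

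The make-up of the families was close at both ages. In all 12 families with more than 1 member, the gene with the highest FPKM at 2 months was also the highest at 6 months. Among the leaders were Scn3a, Cacna1d, Cacna1a, Cacna1g, Cacna2d3, Cacnb3, Cacng4, Hcn4, Trpc2, Trpm4 and Trpv4. In the alpha2-delta family the lead of Cacna2d3 over Cacna2d1 was 34.8% against 33.4% at 6 months, a gap that cannot be weighed without replicates.

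No expressed channel gene had a large change with age. Of the 15 expressed genes, 0 differed by 1.5-fold or more on the log2(FPKM + 1) scale, where 2.77% of the 12652 expressed genes did, 1.05% higher and 1.72% lower at 6 months. At that share, fewer than 1 of 15 genes would be past the threshold, so a count of 0 is near the background. The changes ran from -0.06 for Cacnb1 to 0.36 for Trpv3, with a median of 0.09 against -0.01 for all expressed genes. The genes nearest to the threshold were Trpv3 and Hcn4, the latter with 0.28.

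Small differences in the upward direction were frequent. A higher value at 6 months was found for 12 of the 15 genes, where 46.3% of all expressed genes were higher. The other 3, Trpc4ap, Cacnb1 and Trpv4, were lower by 0.06 or less on the log2 scale, and Trpv4, with -0.01, turned to 0.01 when both ages were scaled to equal upper quartiles. Among genes averaging 1 to 20 FPKM, which holds all of these but Trpc4ap, 51.3% were higher and 12 of 14 channel genes were. Whether these differences exceed the spread between pools could not be tested.

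**Figure D4:**
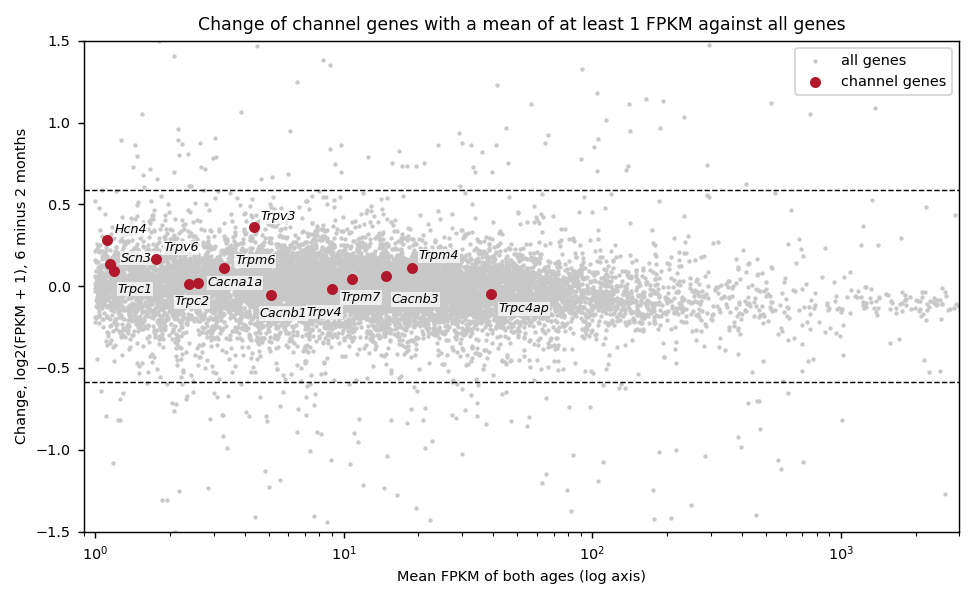
Change in log2(FPKM + 1), 6 minus 2 months, against the mean FPKM of both ages on a log axis, for 14 of the 15 expressed channel genes (red, named) and all expressed genes (grey), with genes beyond the axis limits not drawn. The dashed lines mark a 1.5-fold change, and all 14 red points lie between them, from -0.06 to 0.36.

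With a pseudocount of 0.1, still 0 of the 15 expressed genes passed 1.5-fold, beside 3.63% of all expressed genes. With that pseudocount and no filter on level, a treatment that shows the weak genes and was added after the values had been seen, 3 of the 66 genes passed 1.5-fold, where 4.87% of all genes did. These were Cacna1h and Hcn2, both higher at 6 months with changes of 0.64 and 0.59, and Cacng1, lower with -1.11. Their levels were at most 0.748 FPKM, and the share of 4.55% is near that of all genes.

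The pore genes of skeletal muscle and of pain-sensing neurons, Cacna1s, Scn4a, Scn10a and Scn11a, were at or near 0. Of 9 skeletal muscle markers, 6 were expressed, and 5 of these were higher by 1.5-fold or more at 6 months, where 1.05% of all expressed genes were. Among the 5 were Tnnc2, from 2.14 to 5.57 FPKM, and Acta1, from 1.98 to 4.15 FPKM. The expressed marker that did not pass was the most abundant of the 9 and changed little. The summed level of the 9 was 20.5 and 32.9 FPKM. Cacna1s, the pore of the muscle calcium channel, was at 0.0150 and 0.0263 FPKM. Scn4a, the muscle sodium channel, was at 0.00791 and 0.0115 FPKM. Both were higher at 6 months, at levels near 0, and Cacng1 was lower, from 0.177 to 0.0284 FPKM. Cacnb1 was at 5.22 and 4.98 FPKM. Of 10 sensory neuron markers, Tac1 was listed at 0 at both ages and 3, Avil, Calca and Nefl, were expressed. Avil, at 74.1 and 68.8 FPKM, is also a gene of chemosensory epithelial cells. Trpv1 was at 0.300 and 0.446 FPKM. The part of neurons in the value of Trpv1 was not tested. Of the Schwann cell list, Mbp was at 16.2 and 16.0 FPKM, and Sox10 at 1.95 and 1.05 FPKM. Of 5 leukocyte markers, 4 were expressed and 2 of these were higher at 6 months. Ptprc was at 1.54 and 1.65 FPKM, while the summed level of the 5 was 310 and 268 FPKM, most of it from a single gene. Of the endothelial and mural markers, 4 of 5 were under 1 FPKM. The 3 type I markers had a summed level of 76.1 and 66.4 FPKM, most of it from a single gene, and the 3 did not all go the same way.

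Genes whose proteins regulate these channels or work beside them were compared in the same way, from lists of 48 genes in all. Of the 31 that were expressed, 0 passed 1.5-fold, where 2.77% of all expressed genes did, so a count of 0 is near the background. Higher at 6 months were 17 of the 31, where 46.3% of all expressed genes were, and their median change was 0.02. Pex5l, a partner that controls the surface number of HCN channels, was at 13.9 and 10.6 FPKM, a change of -0.36 opposite in sign to that of Hcn4 (0.28). Fgf13 and Fgf14, which bind sodium channel tails, were at 2.53 and 2.51 FPKM and at 2.58 and 2.49 FPKM. Ank3, which anchors sodium channels, was at 11.2 and 12.0 FPKM. Among the inhibitors of calcium channels, Rem2 was at 0.951 and 0.757 FPKM, Gem at 0.117 and 0.0933 FPKM, Rrad at 0.2001 and 0.492 FPKM, higher at 6 months, and Rem1 was listed at 0 at both ages.

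Store-operated calcium entry was well represented. Stim1, the calcium sensor of the store, was at 19.7 and 22.9 FPKM, and the pore genes Orai1, Orai2 and Orai3 stood between 7.54 and 11.7 FPKM at both ages. Itpr3, the calcium release channel of type II cells, was at 35.0 and 42.1 FPKM, a change of 0.26. Itpr2 was at 7.87 and 9.02 FPKM, and Ryr1, the release channel of muscle, at 0.445 and 0.495 FPKM.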

How the data were processed

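RNA of isolated CV/Fol taste cells was sequenced from 3 pooled libraries at 2 months and 3 at 6 months, after poly(A) selection. The submitters' processing notes name TopHat2 2.0.7, Cufflinks 2.1.1 and Cuffdiff with GRCm38/mm10, and the paper names RefSeq genes of iGenomes. The authors deposited FPKM values, 1 per gene and age over the libraries of that age, and an unadjusted p-value column of their own comparison, which was not used. The column for 6 months was recognised by the letter B of the sample titles. The Cuffdiff library normalization is not given in the sources used here.

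From these values the difference of log2(FPKM + 1) was computed, with a minimum mean of 1 FPKM and a threshold of 1.5-fold. Replicate values were not analysed here, so no test was made. Named genes were the members averaging 1 FPKM or more, preset known channels, marker genes and Trpm5. Members under 1 FPKM were to be named if they differed at least 2-fold with the higher value at least 0.2 FPKM, which none did. Any other gene was picked with its values in view. Some genes of the lists are not reported here. The members and lists were chosen with earlier results of these data known. Alternatives were 0.1 as pseudocount, equal upper quartiles, removal of the filter, a minimum mean of 5 FPKM, and a 2-fold threshold. Coordinates of all 66 genes came from GENCODE M21. The tools were numpy 2.4.6, pandas 2.3.3 and matplotlib 3.10.9 under Python 3.11.15.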

Additional observations from a re-analysis of the deposited data

How the results depend on the processing

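The table has 1 value per age, so precision is unknown and no call rests on replicates. No paired analysis was possible because no value per library was analysed here, and fits without each library were not run for the same reason. The number of channel genes past the threshold was 0 under the pseudocount of 0.1, the scaling, no filter, a minimum mean of 5 FPKM and the 2-fold threshold, and 3 when no filter and the pseudocount of 0.1 were combined, a setting added after the data were seen. The median change over the channel genes was 0.09, and between 0.01 and 0.11 under the 4 alternatives that could move it. Scaling moved the median of all expressed genes from -0.01 to 0.01. The direction of Trpv4 differed under it, and the other 13 genes compared one by one kept theirs. By family, a move of more than 0.1 was seen for HCN channels, from 0.28 to 0.15 without a filter and 0.49 with the pseudocount of 0.1, for sodium channel alpha subunits, from 0.14 to 0.01 (0.0061) without a filter, and for TRPV, from 0.17 to -0.014 with a minimum mean of 5 FPKM. These family values rest on 1 to 3 genes, and fewer or more genes enter under another filter.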

Other observations

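Related cation channels outside the families described above were also present in the taste cell RNA. Mcoln1, Tpcn1 and Tpcn2 encode channels of lysosomes and endosomes and stood at 17.4, 20.2 and 8.50 FPKM at 2 months and at 16.4, 21.6 and 11.0 FPKM at 6 months. Tpcn2 had the largest change of this list, 0.34 on the log2(FPKM + 1) scale. Pkd2, a channel of primary cilia, was at 6.38 and 6.99 FPKM, and Calhm1, a subunit of the channel through which type II cells release ATP, at 2.39 and 2.77 FPKM. Nalcn, the sodium leak channel, was at 0.918 and 1.03 FPKM, and its partners Unc79 and Unc80 were under 0.4 FPKM. Mcoln2 and Mcoln3 were at 0.143 and 0.199 FPKM at 2 months. Of the 8 genes of the list that were expressed, 5 were higher at 6 months, where 46.3% of all expressed genes were. A change of 1.5-fold was passed by 0 of the 8 and by 2.77% of all expressed genes, so this count is near the background.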
